A study of Homo sapiens with 7 samples.

Results

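MORF4L1 and 9 genes related to it by sequence or by protein complex were followed in HCT116 cells, a human colorectal carcinoma line. The 10 genes were chosen by symbol: MORF4L1 itself, its processed pseudogene MORF4L1P1, its paralog MORF4L2, 4 subunits of the NuA4 histone acetyltransferase (MRGBP, KAT5, EP400 and TRRAP) and 3 genes of SIN3 histone deacetylase complexes (SIN3A, KDM5A and PHF12). All 10 had reads, among 15659 gene symbols with a read in the series, and all 10 passed the filter on low counts. The cells carried a DROSHA knockout and had been transfected with miR-148a-3p (3 libraries) or with a control miRNA (3 libraries). Both groups share the knockout, and DROSHA is the nuclear RNase that begins the maturation of most microRNAs. The labels state neither the number of clones behind the knockout line nor the sequence of the control miRNA. RNA was taken 48 h after transfection, and poly(A) RNA was read near its 3' end from 500 ng of total RNA. A small RNA library of wild-type HCT116 cells, which has no replicate, gives the natural level of the microRNA.

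MORF4L1, also called MRG15, holds a chromodomain that binds histone H3 methylated at lysine 36 and an MRG domain through which it joins other proteins. It is shared between NuA4, which acetylates histones H4 and H2A, and SIN3 complexes, which remove acetyl groups, and its yeast counterpart Eaf3 is likewise shared by NuA4 and the deacetylase Rpd3S. A microRNA pairs through its seed, near its 5' end, with sites that lie mostly in 3' untranslated regions, and the paired messenger RNAs are repressed and degraded.

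The transfected microRNA belongs to a family of 3 mature sequences with 1 seed, shown here because the seed sets which messenger RNAs are bound. The sequences are from RefSeq (GRCh38.p14), 5' to 3', and capitals mark bases 2 to 8, the seed.
miR-148a-3p: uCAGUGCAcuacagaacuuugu
miR-148b-3p: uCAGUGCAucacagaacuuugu
miR-152-3p: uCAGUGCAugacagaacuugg
All 3 carry the seed CAGUGCA, whose DNA complement is TGCACTG. They come from MIR148A on the minus strand of chromosome 7 (25949922 to 25949943), MIR148B on the plus strand of chromosome 12 (54337278 to 54337299) and MIR152 on the minus strand of chromosome 17 (48037174 to 48037194). Wild-type HCT116 cells had this microRNA at 253510 of 3627859 microRNA counts, 6.99% (Wilson 95% interval 6.96% to 7.01%, counting error only). No transcript sequence was used here, so seed matches in the 10 genes were not searched for.

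The miR-148a-3p libraries held 1564125, 842294 and 630142 counts, against 1069154, 876131 and 890849 in the control libraries. DROSHA was counted with 20, 15 and 13 reads after miR-148a-3p and with 31, 16 and 16 reads after the control. Reads near its 3' end do not check a knockout whose site the labels leave out. Of 13 colon epithelium markers 8 had reads, with a summed level of 1622 to 1752 CPM (counts scaled to a common library size) with miR-148a-3p and 1681 to 1935 CPM with the control, while the markers KRT20, CDX1, CEACAM5, TFF3 and MUC2 were listed in no library. Marker sums are scaled by the total counts of each library alone, whereas the CPM of single genes below also use TMM factors. Blood cell markers summed to 1.19 to 7.03 CPM with miR-148a-3p and 3.37 to 7.48 CPM with the control, and 9 of 11, among them PTPRC, SPI1 and MPO, had no reads. Fibroblast and endothelial markers summed to 33.2 to 61.9 CPM with miR-148a-3p and 38.8 to 79.5 CPM with the control, with 5 of 10 at 0 reads, including COL1A2, DCN and CDH5. Control replicate 1 and miR-148a-3p replicate 3 lay at opposite ends of the first principal component (-31.4 and 34.2, against -8.29 to 13.1 for the other libraries), which held 29.8% of the variance. Values are given without these libraries where they change a result.

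MORF4L1 is the gene the others were chosen around, because it was lower with miR-148a-3p in these same libraries, so its own values, the fitted change included, are a description and support nothing. It lies on chromosome 15 from 78872890 to 78898139 (GRCh38.p14). It was counted with 356, 259 and 145 reads after miR-148a-3p and with 537, 748 and 925 reads after the control. Scaled to a common library size by TMM, these are 235, 306 and 239 CPM with miR-148a-3p and 517, 873 and 1052 CPM with the control. The highest miR-148a-3p library lay below the lowest control library, and the control libraries differed more among themselves than the miR-148a-3p libraries did. The means were 259.9 ± 40.3 CPM with miR-148a-3p and 814 ± 272 CPM with the control (SD, n = 3 each), a fitted ratio of 0.319. The log2 fold change, miR-148a-3p over control, was -1.65 (SE 0.21, 95% interval -2.08 to -1.21). Among all 8921 genes tested, 1 gene passed an adjusted p of 0.05 with edgeR (0.0112%), and it is this one. That count was 26 without control replicate 1 and 2 without miR-148a-3p replicate 3, with MORF4L1 among them in both. Control replicate 1, the lowest control library, set the low end of that group, and without it the log2 fold change was -1.89. In RNA from whole cultures, less MORF4L1 RNA per cell and fewer cells that express it cannot be told apart.

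**Figure D1:**
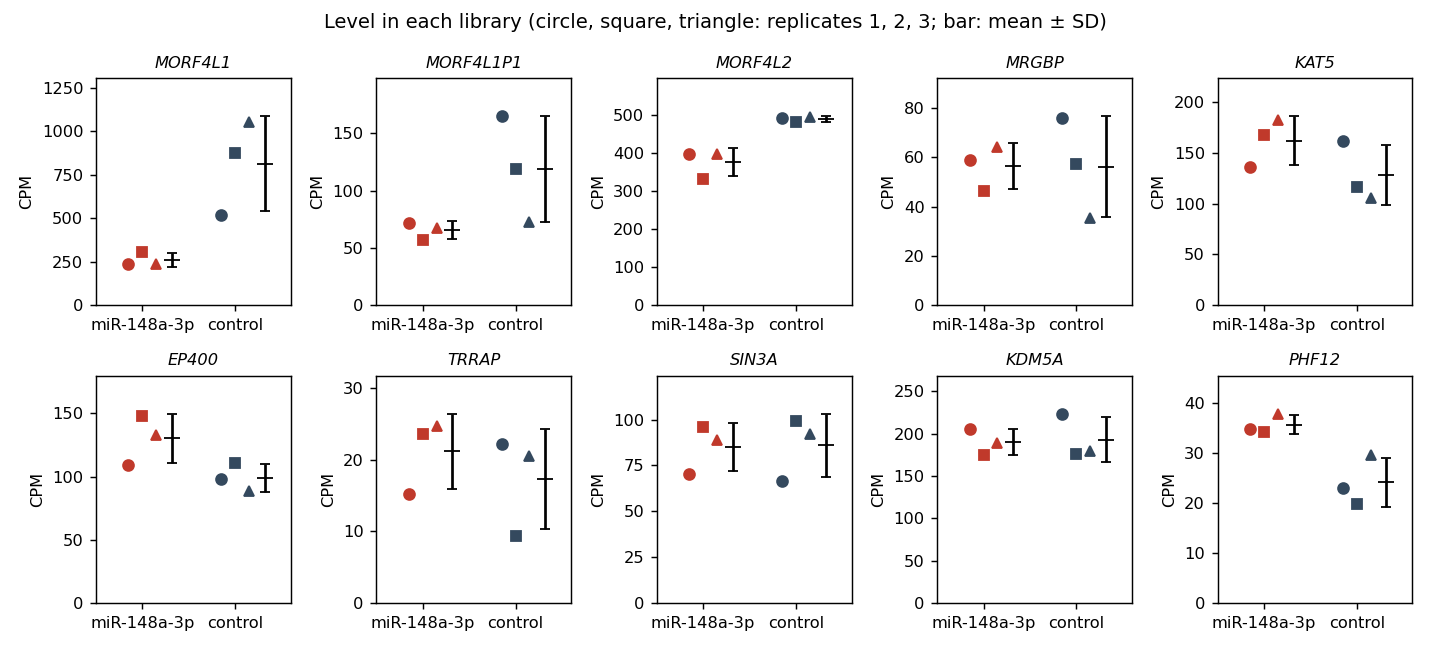
Level of each of the 10 genes in CPM (vertical axes, each from 0) in the 3 libraries of the miR-148a-3p group (red) and the 3 of the control group (blue), with circles, squares and triangles for replicates 1, 2 and 3 and bars for the mean ± SD. The groups stand apart for MORF4L1, MORF4L1P1, MORF4L2 and PHF12, and overlap for the other 6 genes.

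The 2 relatives had lower fitted values as well, by less than MORF4L1 and without passing the threshold over all genes. MORF4L2, also called MRGX, has the MRG domain but no chromodomain, and it enters the same complexes. Its gene lies on chromosome X (103675498 to 103688047). It was measured at 398, 334 and 398 CPM with miR-148a-3p and at 493, 482 and 496 CPM with the control. The reads were 604, 282 and 242 with miR-148a-3p, against 512, 413 and 436 with the control. The control libraries lay close together, and all 3 miR-148a-3p libraries were below them. Its log2 fold change was -0.38 (SE 0.17, 95% interval -0.73 to -0.03, edgeR adjusted p = 0.711), and it stayed between -0.42 and -0.30 when any 1 library was left out.

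MORF4L1P1 lies on chromosome 1 (220253635 to 220254741), a span of 1107 bases against 25250 for MORF4L1, and the whole of it falls within the span of RAB3GAP2. It was measured at 71.8, 56.8 and 67.5 CPM with miR-148a-3p and at 165, 119 and 72.8 CPM with the control. The groups did not overlap, but miR-148a-3p replicate 1, at 71.8 CPM, and control replicate 3, at 72.8 CPM, nearly met. The log2 fold change was -0.86 (SE 0.26, 95% interval -1.39 to -0.33, edgeR adjusted p = 0.398). Without control replicate 1 it was -0.54, and without control replicate 3 it was -1.11. RAB3GAP2, which encodes a subunit of the RAB3 GTPase-activating protein, was measured at 37.6, 31.9 and 23.0 CPM with miR-148a-3p and at 64.5, 18.7 and 34.1 CPM with the control, with control replicate 1 again the highest library (log2 fold change -0.32, SE 0.37, edgeR adjusted p = 0.904).

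The order of the control libraries was opposite in the gene and its pseudogene. MORF4L1 was lowest in control replicate 1 and highest in control replicate 3, and MORF4L1P1 was highest in replicate 1 and lowest in replicate 3. The pseudogene therefore held 23.4%, 15.6% and 22.0% of the reads of the pair with miR-148a-3p, and 24.2%, 12.0% and 6.47% with the control. The 95% Wilson intervals of control replicate 1 (21.1% to 27.4%) and control replicate 3 (5.10% to 8.18%) did not overlap, and with miR-148a-3p the intervals ran from 12.0% to 28.5%. These intervals cover counting error only, while over all genes the counts of libraries in 1 group differed by 2.52 to 5.30 times what Poisson counting gives. RefSeq lists 9 pseudogenes of the MORF4 name, and MORF4L1P1 is the 1 with a row in the counts. How reads that match several copies were assigned is not given in the sources used here, so values of MORF4L1 and MORF4L1P1 are uncertain to that extent. With the reads of both added, the level was 306, 363 and 306 CPM with miR-148a-3p and 682, 992 and 1125 CPM with the control, and the log2 fold change was -1.52 (SE 0.19), against -1.65 for MORF4L1 alone.

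MORF4L1 and MORF4L2 both enter NuA4 and SIN3 complexes, and the balance of their reads does not depend on library scaling. MORF4L1 made up 37.1%, 47.9% and 37.5% of the reads of both with miR-148a-3p, and 51.2%, 64.4% and 68.0% with the control. MORF4L2 thus held more reads than MORF4L1 in all 3 miR-148a-3p libraries and fewer in all 3 control libraries. The nearest libraries were miR-148a-3p replicate 2 (Wilson 95% interval 43.7% to 52.1%) and control replicate 1 (48.2% to 54.2%), whose intervals overlap. Added together, the pair was at 633, 640.1 and 637 CPM with miR-148a-3p and at 1010.4, 1355 and 1548 CPM with the control. The sum was nearly the same in the 3 miR-148a-3p libraries (637 ± 3.68 CPM, SD, n = 3) and varied among the controls (1304 ± 272 CPM, SD, n = 3). Because MORF4L1 was chosen for its difference, these shares and sums are descriptions.

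**Figure D2:**
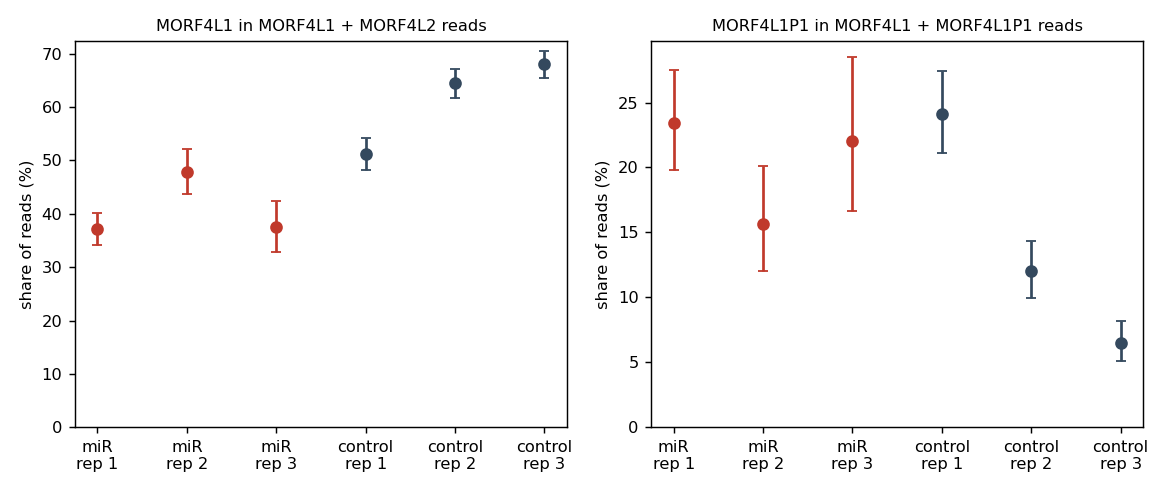
Share of reads in percent (vertical axes from 0) in each library, miR-148a-3p in red and control in blue, with Wilson 95% intervals. Left, MORF4L1 among MORF4L1 and MORF4L2 reads was 37.1% to 47.9% with miR-148a-3p and 51.2% to 68.0% with the control; right, MORF4L1P1 among MORF4L1 and MORF4L1P1 reads ranged from 6.47% to 24.2% within the control group.

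The 4 NuA4 subunits had fitted values near 0 or above it. MRGBP, the small subunit that binds the MRG domain, was measured at 58.7, 46.1 and 64.2 CPM with miR-148a-3p and at 76.1, 57.2 and 35.3 CPM with the control, so all miR-148a-3p libraries lay inside the control range. Its log2 fold change was -0.01 (SE 0.29, 95% interval -0.60 to 0.58, edgeR adjusted p = 0.996). KAT5, also called TIP60, the catalytic acetyltransferase, was at 136, 168 and 183 CPM with miR-148a-3p and at 162, 117 and 106 CPM with the control (log2 fold change 0.32, SE 0.21, edgeR adjusted p = 0.795). Control replicate 1 was higher than miR-148a-3p replicate 1, and the other 2 control libraries lay below all miR-148a-3p libraries. The span of KAT5 overlaps that of RNASEH2C by 1932 bases, and without stated use of strand their reads cannot be fully told apart. RNASEH2C had 5, 11 and 10 reads with miR-148a-3p and 2, 2 and 6 with the control.

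EP400, the ATPase that exchanges the histone variant H2A.Z, was measured at 109, 147.9 and 133 CPM with miR-148a-3p and at 98.2, 111 and 88.7 CPM with the control. Only miR-148a-3p replicate 1 fell within the control range, and the log2 fold change was 0.38 (SE 0.22, 95% interval -0.06 to 0.83, edgeR adjusted p = 0.746). TRRAP, the large scaffold that transcription activators contact, was the least abundant of the 10 genes in both groups, with 23, 20 and 15 reads with miR-148a-3p and 23, 8 and 18 with the control. Its interval, -0.68 to 1.15, was the widest of the 10 (log2 fold change 0.24, SE 0.45, edgeR adjusted p = 0.940). The 4 subunits together summed to 319, 386 and 405 CPM with miR-148a-3p and 358, 294 and 250.3 CPM with the control, and these ranges overlap. For each read of these 4 genes there were 0.736, 0.794 and 0.589 MORF4L1 reads with miR-148a-3p and 1.44, 2.97 and 4.20 with the control. Because MORF4L1 was chosen for its difference, these ratios are a description.

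The 3 SIN3 complex genes included 1 whose groups did not overlap, where 12.8% of all genes tested did not. SIN3A, the scaffold that holds histone deacetylases, was at 70.5, 95.8 and 88.9 CPM with miR-148a-3p and at 66.5, 99.2 and 92.1 CPM with the control. Replicate 1 was the lowest library of both groups, and the log2 fold change was -0.02 (SE 0.24, 95% interval -0.52 to 0.47, edgeR adjusted p = 0.992). KDM5A, a demethylase of histone H3 lysine 4, was at 206, 175 and 189 CPM with miR-148a-3p and at 223, 176 and 179.7 CPM with the control (log2 fold change -0.02, SE 0.19, 95% interval -0.41 to 0.37, edgeR adjusted p = 0.992). PHF12, also called Pf1, a PHD finger protein that binds both MORF4L1 and SIN3, was at 34.9, 34.3 and 37.9 CPM with miR-148a-3p and at 23.1, 19.8 and 29.6 CPM with the control. All 3 miR-148a-3p libraries lay above the control libraries, from 53, 29 and 23 reads against 24, 17 and 26 reads. Its log2 fold change was 0.56 (SE 0.34, 95% interval -0.14 to 1.25, edgeR adjusted p = 0.776). The 3 genes summed to 311, 305 and 316 CPM with miR-148a-3p and to 313, 295 and 301 CPM with the control, with overlapping ranges.

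Of the 9 genes other than MORF4L1, 5 had fitted values below 0 and 4 above it, where 50.5% of all genes tested lay below 0. Of these 9 genes, 0 passed an adjusted p of 0.05 with edgeR (0.0112% of all genes tested did), or with DESeq2 or limma-voom. Their median log2 fold change was -0.01, against -0.0039 over all 8921 genes, and 2 (MORF4L1P1 and MORF4L2) had an unadjusted p below 0.05, as did 6.79% of all genes tested. The groups did not overlap in the lower direction for those 2 genes and in the higher direction for PHF12, where 6.59% and 6.22% of all genes tested did so. The 95% intervals, which are not adjusted for the number of genes, lay below 0 for MORF4L1P1 and MORF4L2 and spanned 0 for the others. They leave room for sizeable changes: they reach a MORF4L1P1 level of 0.380 times control, a MORF4L2 level of 0.603 times control and a PHF12 level of 2.38 times control.

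**Figure D3:**
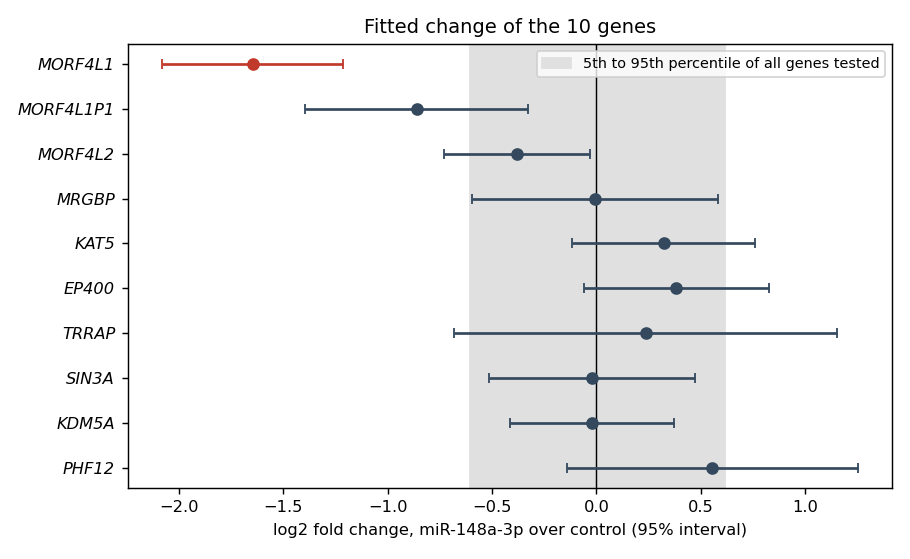
Fitted log2 fold change (horizontal axis, miR-148a-3p over control) of the 10 genes, with 95% intervals from the edgeR fit; the grey band spans the 5th to 95th percentile of all genes tested (-0.61 to 0.62). MORF4L1 at -1.65 and MORF4L1P1 at -0.86 lie outside the band, and the other 8 points lie inside it.

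The level of the 10 genes was compared within each group on the CPM scale, where reads near the 3' end do not grow with transcript length. With miR-148a-3p the order was MORF4L2 (377 ± 37.3 CPM), MORF4L1 (259.9 ± 40.3), KDM5A (190.0 ± 15.3), KAT5 (162 ± 24.0), EP400 (130.2 ± 19.4), SIN3A (85.1 ± 13.1), MORF4L1P1 (65.4 ± 7.75), MRGBP (56.3 ± 9.25), PHF12 (35.7 ± 1.90) and TRRAP (21.2 ± 5.23; SD, n = 3 each). With the control MORF4L1 came first (814 ± 272 CPM), followed by MORF4L2 (490.3 ± 7.46), KDM5A (193 ± 26.3), KAT5 (128 ± 29.7), MORF4L1P1 (119 ± 46.0), EP400 (99.3 ± 11.1), SIN3A (85.9 ± 17.2), MRGBP (56.2 ± 20.4), PHF12 (24.2 ± 4.96) and TRRAP (17.3 ± 6.97; SD, n = 3 each). In the miR-148a-3p group the ranges of KDM5A, KAT5 and EP400 overlapped from each to the next, as did those of SIN3A, MORF4L1P1 and MRGBP. In the control group the ranges of neighbours from KAT5 down to MRGBP overlapped, as did those of PHF12 and TRRAP, so these places in the order are not distinguished. MORF4L1 and MORF4L2 were above 98.3% and 96.7% of the 8921 genes in control libraries, and TRRAP above 14.6%. Promoter sequences of 7 of the 10 genes matched in the RefSeq table, and their G+C content, 59.7% to 79.0%, lay above the median of 58.7% over 35116 promoters of all gene types.

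The wider NuA4 complex was described with a list of 18 subunits, all tested. Among the 12 that are not among the 10 genes above, 4 had fitted values below 0 and 8 above it, and 0 passed with edgeR, where 0.0112% of all genes did, while 2 had an unadjusted p below 0.05, as did 6.79% of all genes tested. Their median log2 fold change was 0.04. The 3 of them with the smallest p are named here. DMAP1, which binds a DNA methyltransferase and is shared with the SRCAP remodeller, was measured at 13.8, 13.0 and 9.88 CPM with miR-148a-3p and 32.7, 15.2 and 39.8 CPM with the control (log2 fold change -1.22, SE 0.44, edgeR adjusted p = 0.576). EPC1, a scaffold subunit, was at 38.9, 21.3 and 28.0 CPM with miR-148a-3p and 42.4, 51.3 and 52.3 CPM with the control (-0.68, SE 0.31, edgeR adjusted p = 0.725). MBTD1, a reader of methylated histone H4, was at 21.1, 22.5 and 16.5 CPM with miR-148a-3p and 39.5, 25.7 and 35.3 CPM with the control (-0.72, SE 0.36, edgeR adjusted p = 0.726). For these 3 of the 12 genes the miR-148a-3p libraries lay below the control libraries, and for 0 they lay above. Over all genes tested they lay below for 6.59%, and the groups did not overlap in either direction for 12.8%. Read numbers were low, and DMAP1 had 21, 11 and 6 reads with miR-148a-3p and 34, 13 and 35 with the control.

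In the list of SIN3 complex genes, 24 of 25 were tested (BRMS1L was not). The 19 that are not among the 10 genes divided into 10 lower and 9 higher fitted values with a median of -0.06. With edgeR 0 of them passed and 0 had an unadjusted p below 0.05, where 0.0112% and 6.79% of all genes tested did. Among these 19 the groups did not overlap for RBBP4 and SAP30L only, named after their values were seen. Both were higher with miR-148a-3p, and over all genes tested the groups did not overlap for 12.8%. RBBP7, a histone-binding WD40 protein, was at 207, 232 and 369 CPM with miR-148a-3p and 206, 187 and 215 CPM with the control (0.39, SE 0.21, edgeR adjusted p = 0.726), with replicate 3 of the miR-148a-3p group far above the rest. HDAC1, a catalytic deacetylase, had a log2 fold change of 0.32 (SE 0.20) and SAP130, a SIN3-associated subunit, one of -0.71 (SE 0.46), with edgeR adjusted p of 0.777 and 0.788. The median was 0.10 without control replicate 1, -0.16 without control replicate 2 and 0.08 without miR-148a-3p replicate 1.

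Of the 10 other MORF4L1 partners and genes of histone H3 lysine 36 methylation, 4 were lower and 6 higher, with a median of 0.09. With edgeR 0 passed, where 0.0112% of all genes tested did, and 0 had an unadjusted p below 0.05, where 6.79% did. NSD2, a methyltransferase for that lysine, was at 733, 728 and 789 CPM with miR-148a-3p and 537, 624 and 659 CPM with the control, without overlap (0.30, SE 0.17, edgeR adjusted p = 0.726). SETD2, which adds the third methyl group that the MORF4L1 chromodomain binds, was at 92.3, 103 and 95.5 CPM with miR-148a-3p and 142, 127 and 110.3 CPM with the control, also without overlap (-0.39, SE 0.21, edgeR adjusted p = 0.739). KDM2A, a demethylase of lysine 36, had 0.41 (SE 0.23, edgeR adjusted p = 0.740). The groups did not overlap for 4 of these 10 genes, where they did not for 12.8% of all genes tested. The other 2, named after their values were seen, were ASH1L, a methyltransferase (164 ± 9.70 CPM with miR-148a-3p and 192 ± 11.8 CPM with the control, SD, n = 3 each; -0.22, SE 0.19, edgeR adjusted p = 0.867), and PALB2, a DNA repair protein that binds MORF4L1 (16.3 ± 2.28 CPM with miR-148a-3p and 8.51 ± 3.36 CPM with the control, SD, n = 3 each; 0.95, SE 0.53, edgeR adjusted p = 0.746). The 10 other histone acetyltransferases had 5 lower and 5 higher fitted values and a median of -0.04. Again 0 passed with edgeR or had an unadjusted p below 0.05, where 0.0112% and 6.79% of all genes tested did. KAT7 had a log2 fold change of -0.45 (SE 0.27), HAT1 one of -0.45 (SE 0.29) and CREBBP one of 0.31 (SE 0.23), with edgeR adjusted p of 0.770, 0.781 and 0.825. The groups did not overlap for 1 of these 10 acetyltransferases, CREBBP, where they did not for 12.8% of all genes tested. The medians of the other lists also moved with single libraries left out, from -0.052 to 0.12 for the other 12 NuA4 subunits, from 0.01 to 0.17 for the H3 lysine 36 list and from -0.12 to 0.02 for the acetyltransferases, so the sign of the NuA4, SIN3 and acetyltransferase medians is not fixed.

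**Figure D4:**
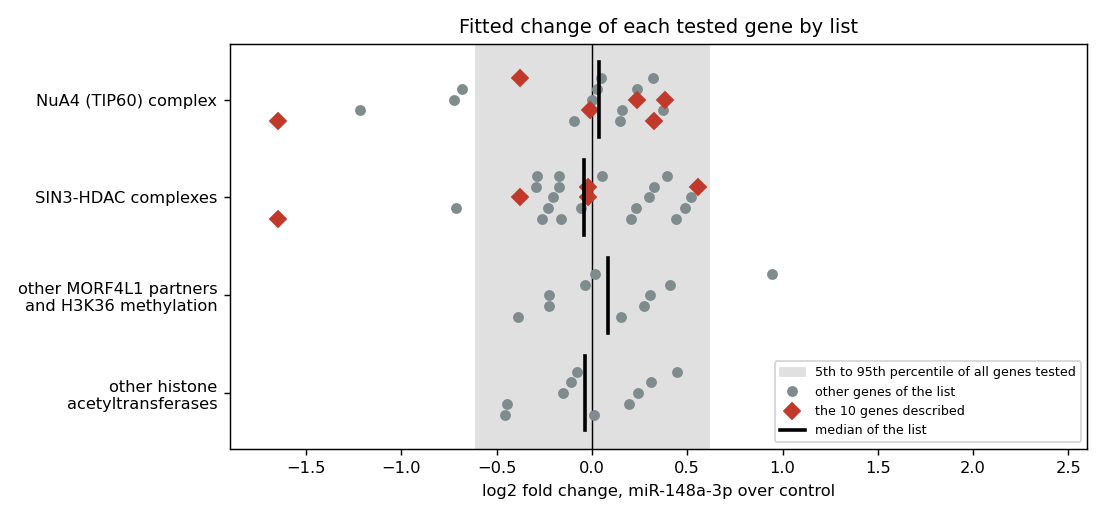
Fitted log2 fold change (horizontal axis, miR-148a-3p over control) of each tested gene in the 4 lists, with the 10 genes described as red diamonds, other genes in grey, list medians as black bars and the 5th to 95th percentile of all genes as a grey band. List medians lie between -0.04 and 0.09, and MORF4L1 at -1.65 is the lowest point of both complexes that hold it.

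The genes whose pattern over the 6 libraries was nearest to that of MORF4L1 were sought among 4121 genes with a mean of at least 50 CPM. Nearness was the root mean square difference of log2 CPM after centring each gene on its own mean, over 6 libraries of 2 groups, and is a description. RPS2, a protein of the small ribosomal subunit, was nearest (0.369), followed by COTL1, an actin-binding protein (0.406), RPS7, another small subunit protein (0.441), SNHG7, a noncoding RNA that hosts small nucleolar RNAs (0.443), and KCTD9 (0.448). The median over the genes searched was 0.897, and MORF4L2 (0.708), MORF4L1P1 (0.782), SIN3A (0.814) and KDM5A (0.905) were farther away than these 5. The NuA4 subunits EP400 (1.04), MRGBP (1.05) and KAT5 (1.09) were farther still. TRRAP and PHF12 had means below 50 CPM and were not among the genes searched. RPS2 was measured at 537, 543 and 402 CPM with miR-148a-3p and 540.3, 1105 and 1371 CPM with the control, so its control replicate 1 lay within the miR-148a-3p range. COTL1 was at 165, 166 and 168 CPM with miR-148a-3p and at 225, 326 and 365 CPM with the control, without overlap. In all 5 genes, as in MORF4L1, control replicate 1 was the lowest control library and control replicate 3 the highest. The 5 genes were picked for nearness over these same libraries, so this likeness is largely a product of the choice. Their log2 fold changes ran from -1.02 for RPS2 to -0.78 for KCTD9, with edgeR adjusted p of 0.169 and 0.563. These values too are shaped by the choice and are a description.

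**Figure D5:**
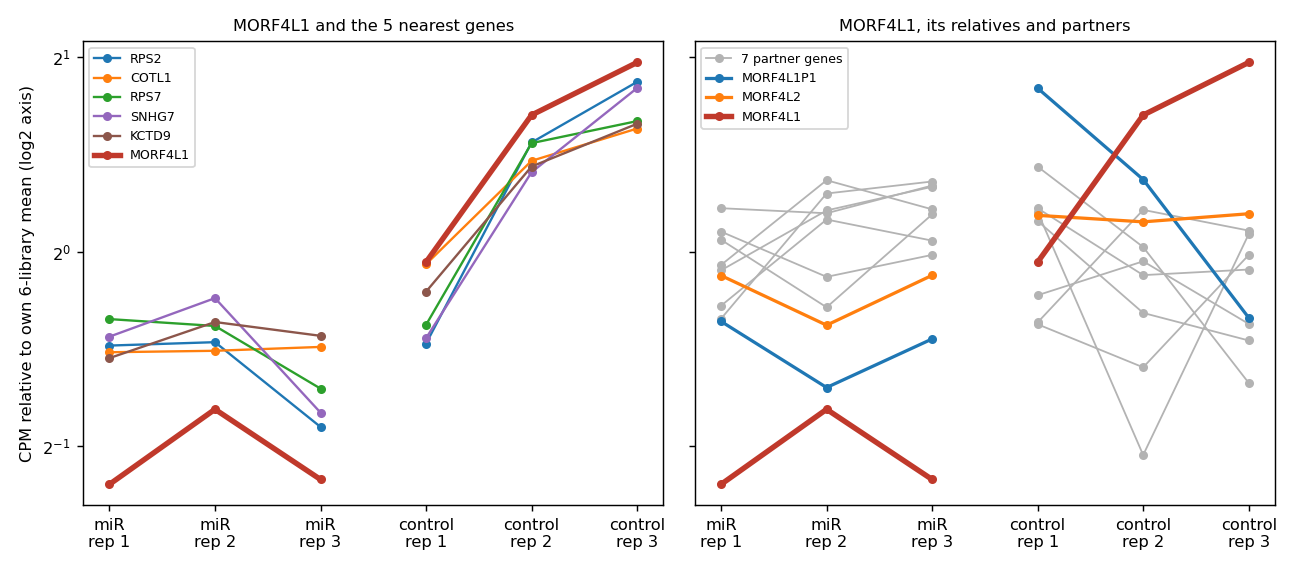
CPM of each gene divided by its own mean over the 6 libraries (vertical axis, log2 scale) in the miR-148a-3p libraries (left 3 points) and control libraries (right 3), with lines joining libraries of a group only to guide the eye. The 5 nearest genes, picked for nearness over these same libraries, share the low control replicate 1 and high control replicate 3 of MORF4L1. MORF4L1P1 is highest in control replicate 1 and MORF4L2 is level across the control libraries.

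The 6 tested genes nearest to MORF4L1 on chromosome 15, 3 on each side, had log2 fold changes from -0.91 to 0.33. CTSH, the lysosomal protease cathepsin H, starts 22919 bases beyond its end and was at 17.1, 16.6 and 14.8 CPM with miR-148a-3p and 14.4, 12.8 and 11.4 CPM with the control (log2 fold change 0.33, SE 0.47, edgeR adjusted p = 0.921). TMED3, a cargo receptor of the secretory pathway, had 0.06 (SE 0.31) and ZFAND6 -0.45 (SE 0.26). On the other side, CHRNA5, a nicotinic receptor subunit 277621 bases away, had -0.91 (SE 0.54) from 12, 14 and 5 reads with miR-148a-3p and 7, 23 and 25 reads with the control. PSMA4, a proteasome subunit, had 0.21 (SE 0.19), and IREB2, an iron-regulatory protein, had -0.10 (SE 0.22). With edgeR, 0 of these 6 neighbours passed or had an unadjusted p below 0.05, where 0.0112% and 6.79% of all genes tested did. The edgeR adjusted p ran from 0.746 for ZFAND6 to 0.980 for TMED3.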

How the data were processed

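For each mRNA library the authors deposited unscaled counts by gene symbol, and for the small RNA library counts by microRNA isoform, per the file headers and values. Symbols without a row in a library were read as 0. The submitters' processing notes name GRCh38, STAR, Bowtie2 and cutadapt; the counting tool, annotation, handling of multiply matching reads and use of strand were not given in the sources used here. Testing was by edgeR 4.0.16 under R 4.3.3 (TMM, filterByExpr, 8921 genes, quasi-likelihood F test, group as the only term), with Benjamini-Hochberg adjustment over all genes. Intervals are 95%, from the fit's total degrees of freedom (residual plus prior). Only the edgeR fit was tested on simulated data. Members and lists were chosen with earlier results of these data known. Named genes were the 10 members, up to 3 further genes per list with the smallest p, the 5 nearest patterns and 3 neighbours on each side of MORF4L1; RAB3GAP2 and RNASEH2C were added after their overlap was seen. Nothing in the labels says that replicates came from separate cultures; p-values therefore measure only the spread between these libraries, possibly a technical one. Libraries of the same group differed pairwise by 2.52 to 5.30 times Poisson variance (chi-square per degree of freedom). Exact permutation of 3 against 3 libraries cannot go below 0.1, so it was not used. Alternatives were other size factors, DESeq2 1.42.0, limma 3.58.1 (voom), other count filters, the replicate number as a block, thinning, merged MORF4L1 and MORF4L1P1 reads, and leaving out each library.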

Additional observations from a re-analysis of the deposited data

Results flagged for a closer look

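The small RNA library of wild-type HCT116 cells enters no comparison between groups, and all 3 microRNAs of the miR-148 seed family were counted there at more than the 3 counts a zero count permits. miR-148a-3p had 253510 counts, miR-148b-3p 7365 counts (0.203% of 3627859) and miR-152-3p 189 counts (0.00521%). No small RNA library of the DROSHA knockout cells was analysed here.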

How the results depend on the processing

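As a description only, since the gene was chosen for its difference in these libraries, the log2 fold change of MORF4L1 ran from -1.89 (without control replicate 1) to -1.41 (without control replicate 3) over 16 alternatives. The 9 other genes passed in none of the alternatives that tested them (15 for MORF4L1P1 and TRRAP, 16 for the rest). The number of genes past the threshold, 1 with edgeR, was 2 with total counts only (both lower) and 2 with DESeq2 (both lower), 3 with limma-voom (all lower), and 18 without the count filter (11 lower, 7 higher). With 1 library left out it ran from 1 to 26, with 1 to 22 lower and 0 to 4 higher; the 26 came without control replicate 1. With the replicate block it was 3, all lower. Deviations of libraries with the same number correlated at 0.13, 0.09 and -0.0018, and those of libraries with different numbers at -0.13 to 0.03. Whether equal numbers mark a shared day or culture was not tested. The block changed no call of the 10 genes. Directions near 0 changed sign for MRGBP (0.0345 with limma-voom, 0.0053 with the replicate block, 0.18 on thinning, -0.25 to 0.28 with 1 library left out), TRRAP (-0.0538 to 0.46), SIN3A (-0.19 to 0.11) and KDM5A (-0.0881 to 0.0977), the last 3 with 1 library left out; the cause was not tested. At 8 to 53 reads per library for TRRAP and PHF12, depth limits what could be seen.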
